A study of Mus musculus with 4 samples.

Results

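Hematopoietic cells that carry von Willebrand factor (Vwf) RNA beside stem cell genes were examined in the marrow of mice with and without a B-cell acute lymphoblastic leukemia (B-ALL). Members were chosen by UMIs (unique molecular identifiers, 1 per captured RNA molecule) of 13 genes. A cell was a member when it had at least as many UMIs in all as the shallowest cell of the PBS control, at least 1 UMI of at least 3 of the 8 stem cell markers Hlf, Mecom, Procr, Ly6a, Pdzk1ip1, Fgd5, Hoxb5 and Slamf1, and at least 1 UMI of Vwf. It also had UMIs of fewer than 3 of the 4 interferon-induced genes Ifit1, Rsad2, Iigp1 and Ifi44. The rule found 459 members among 11764 cells, with 410 in the B-ALL environment and 49 in the PBS control. The same marker and interferon conditions without regard to Vwf are called the stem cell gate here. It held 2032 cells of the B-ALL environment and 431 of the PBS control, of which 1622 and 382 had no UMI of Vwf.

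The hosts were wild-type CD45.1 mice in both groups. In the B-ALL environment they had received 150000 primary leukemia cells through the tail vein, taken from the lymph node of 1 leukemic Cd45.2+/+ Ebf1+/- Pax5+/- mouse (LN768), and in the PBS control PBS alone. Marrow cells that were KIT+, Lin-, CD45.2- and CD45.1+, and thus of host type, were sorted 3 weeks later and profiled by droplet RNA sequencing from the 3′ end of transcripts. Although 2 samples per group are labelled, the barcodes carry only a group prefix. Each group was therefore 1 sample, differences have no replicate check, and p-values are not given. Intervals are 95% intervals and cover counting error only. Differences are described as higher or lower by their size alone.

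Hematopoietic stem cells make all blood lineages, and single stem cells differ in the lineages they feed. Vwf encodes the large plasma protein that tethers platelets to injured vessel walls, and it is made by megakaryocytes, the parents of platelets, and by endothelial cells. In mice, stem cells with Vwf RNA have been described as sitting high in the stem cell hierarchy and as leaning toward platelet output. Since megakaryocyte progenitors carry Vwf too, members had to be checked against both programs.

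Members had a median of 14805.5 UMIs in the B-ALL environment (3208 to 52149, 6860198 in all) and of 10921 in the PBS control (3926 to 30616, 566730 in all). Vwf-negative cells of the gate had medians of 9244.5 and 7876.5. Mitochondrially encoded genes took 5.40% of member UMIs in the B-ALL environment and 3.79% in the PBS control. Of the cell barcodes, 18 occurred in both groups, and 2 members had such a barcode. Levels are in CPM, UMIs relative to the library total after TMM scaling, or in raw CPM, without that scaling.

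The check of the name against markers gave a mixed picture. Of 10 markers fixed for megakaryocyte progenitors, 8 were in the matrix (among them Pf4, Itga2b, Gp9 and Rab27b). At least 3 of these had a UMI in 193 members of the B-ALL environment (47.1%) and in 38 of the PBS control (77.6%), against 11.3% and 14.4% of Vwf-negative cells of the gate. Fewer than 3 had a UMI in 217 members of the B-ALL environment (52.9%) and in 11 of the PBS control (22.4%). The members with at least 3 megakaryocyte markers were deeper, with a median of 20546 UMIs in the B-ALL environment and 11766 in the PBS control, than the others, with 9764 and 6531. The name "platelet-biased stem cells" therefore could not be given to all members, least of all in the PBS control, and they are called Vwf-positive cells of the stem cell gate.

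On the authors' deposited UMAP the same split was visible. The same markers chose the progenitors below and split the members, so this is a description and not a separate check. Among the 50 nearest cells of members with at least 3 megakaryocyte markers, a mean of 38.7% were megakaryocyte progenitors in the B-ALL environment and 39.1% in the PBS control, where these progenitors were cells outside the gate with at least 3 of the markers. They made up 5.95% of all cells. Around members with fewer than 3 markers, 4.43% and 1.27% were megakaryocyte progenitors, while 45.6% and 41.1% were Vwf-negative cells of the gate, which made up 17.0% of all cells.

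**Figure D1:**
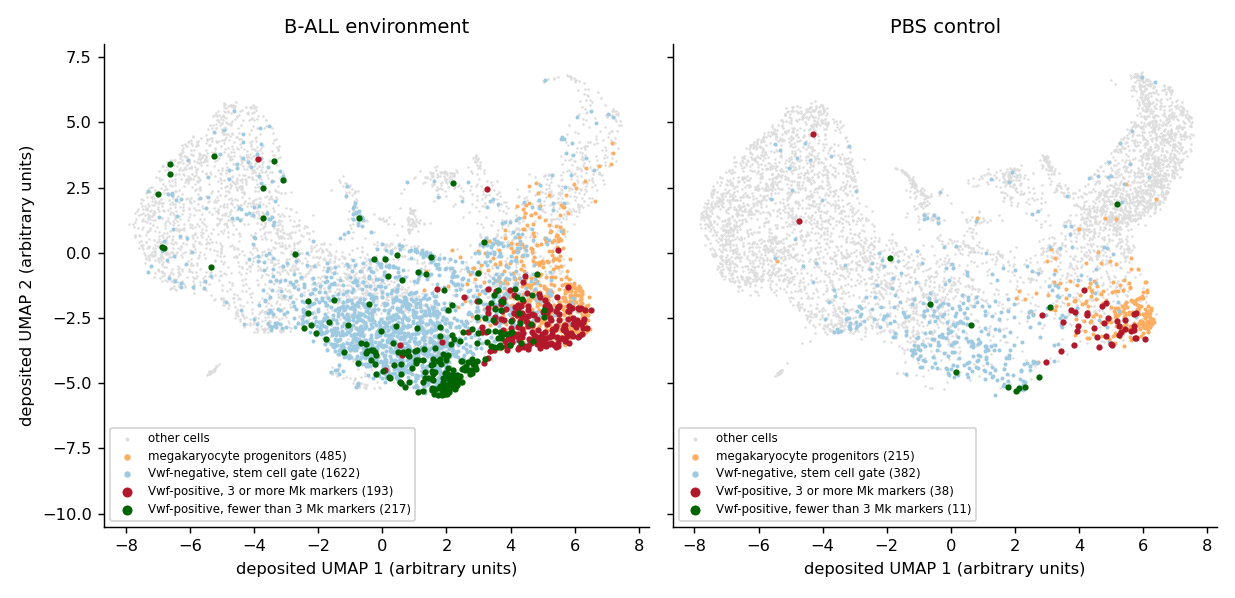
Deposited UMAP coordinates (arbitrary units) of all cells in the B-ALL environment (left) and the PBS control (right), with each point a cell. Vwf-positive cells of the gate with at least 3 megakaryocyte (Mk) markers (193 and 38) lie among the megakaryocyte progenitors (485 and 215), and most of those with fewer than 3 (217 and 11) lie among or below the Vwf-negative cells of the gate (1622 and 382).

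The stem cell markers of the rule were spread unevenly over the members, which is a description of how they were chosen. Of 410 members in the B-ALL environment, 134 (32.7%) had exactly 3 of the 8 markers and 149 (36.3%) had 5 or more. In the PBS control 33 of 49 (67.3%) had exactly 3 and 5 (10.2%) had 5, and none had more. Hlf, a transcription factor that marks stem cells, had a UMI in 87.3% of members in the B-ALL environment and 83.7% in the PBS control. Procr, the protein C receptor, had a UMI in 25.1% and 12.2%, Ly6a, the surface antigen Sca-1, in 42.4% and 18.4%, and Fgd5, a guanine nucleotide exchange factor, in 31.0% and 6.12%. Slamf1, the stem cell surface antigen CD150, which megakaryocyte progenitors also carry, had a UMI in 51.5% and 55.1%. The groups differed in depth, and after thinning these shares were 44.9% and 46.9% for Hlf, 9.76% and 12.2% for Procr, 22.2% and 4.08% for Ly6a, 10.7% and 4.08% for Fgd5 and 16.8% and 26.5% for Slamf1, so that the order of the groups turned for Hlf and Procr.

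Cells just inside and just outside the rule are given next, also as a description. Vwf-positive cells with exactly 2 markers, just outside, numbered 166 in the B-ALL environment and 69 in the PBS control, and had 1322 and 5044 raw CPM of Pf4, the chemokine platelet factor 4 of platelet granules. Members with exactly 3 markers had 1848 and 4686, and members with 4 or more had 767 and 3215. Hlf, in contrast, was at 91.5 and 83.5 raw CPM just outside the rule, at 98.0 and 137 with exactly 3 markers, and at 273 and 218 with 4 or more.

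Vwf itself lies on chromosome 6 (GRCm38, GENCODE M21 annotation, 125546774 to 125686679, plus strand). Most members carried few molecules of it. In the B-ALL environment 202 of 410 had a single UMI and 94 had at least 4, with a highest value of 19. In the PBS control 21 of 49 had a single UMI and 14 had at least 4, with a highest value of 8. Over all members its level was 145 CPM (136 to 154) in the B-ALL environment and 212 CPM (177 to 252) in the PBS control. Since the rule asks for at least 1 UMI of Vwf, which is a higher CPM in a shallower cell, these levels are a description. They do not compare the groups. Megakaryocyte progenitors outside the gate had 70.8 CPM (64.4 to 77.6) and 137 CPM (121 to 155). They were not chosen by Vwf, so their levels cannot be ranked against those of members. Erythroid cells, which should lack Vwf, had 2.18 CPM in the B-ALL environment and 3.16 CPM in the PBS control, with a UMI in 3.16% and 4.05% of cells at median depths of 19281 and 13064.5 UMIs. These shares are the background against which those below are read.

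The members were a larger share of the sorted cells in the B-ALL environment. Among cells above the UMI minimum they were 7.20% of 5692 in the B-ALL environment (exact binomial interval 6.54 to 7.91%) and 0.833% of 5882 in the PBS control (0.617 to 1.10%), a ratio of 8.65 (6.44 to 11.6). The gate itself held 2032 and 431 of these cells. Within the gate the share was 20.2% (18.5 to 22.0%) and 11.4% (8.53 to 14.8%), a ratio of 1.77 (1.34 to 2.34). The pooled level of Vwf over the gate was 41.9 raw CPM (39.4 to 44.5) in the B-ALL environment and 30.1 (25.1 to 35.9) in the PBS control.

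Detection of Vwf moved with depth, and the groups differed in depth. With every cell thinned to the UMI minimum and the rule applied again, 74 of 765 gate cells (9.67%) in the B-ALL environment and 9 of 128 (7.03%) in the PBS control were members, a ratio of 1.38 (0.707 to 2.68) that was within counting error. Split by depth, the Vwf-positive share of the gate was 8.79% and 6.19% below 6000 UMIs, 14.4% and 7.88% from 6000 to below 10000, 17.6% and 21.6% from 10000 to below 15000, and 38.3% and 14.3% at 15000 or more. The intervals of the groups overlapped in all but the deepest bin, where 520 cells of the B-ALL environment and 56 of the PBS control had 34.1 to 42.6% and 6.38 to 26.2%.

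The ratio was larger where megakaryocyte markers were few. Among gate cells with fewer than 3 of them, Vwf had a UMI in 217 of 1655 cells of the B-ALL environment (13.1%, 11.5 to 14.8%) and in 11 of 338 of the PBS control (3.25%, 1.64 to 5.75%), a ratio of 4.03 (2.22 to 7.30). After thinning the shares were 5.44% and 1.78%, a ratio of 3.06 (1.35 to 6.94). The level of Vwf in these cells was 20.8 raw CPM (18.7 to 23.0) in the B-ALL environment and 5.53 (3.22 to 8.85) in the PBS control, which is close to the erythroid background. Among gate cells with at least 3 megakaryocyte markers the shares were 51.2% (46.0 to 56.3%) and 40.9% (30.8 to 51.5%), a ratio of 1.25 (0.963 to 1.63), and the levels were 92.4 and 98.3 raw CPM, within counting error of each other. Median depths in these cells were 18088 UMIs in the B-ALL environment and 10205 in the PBS control, and after thinning the shares were 17.2% and 20.4%, a ratio of 0.844 (0.534 to 1.33).

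**Figure D2:**
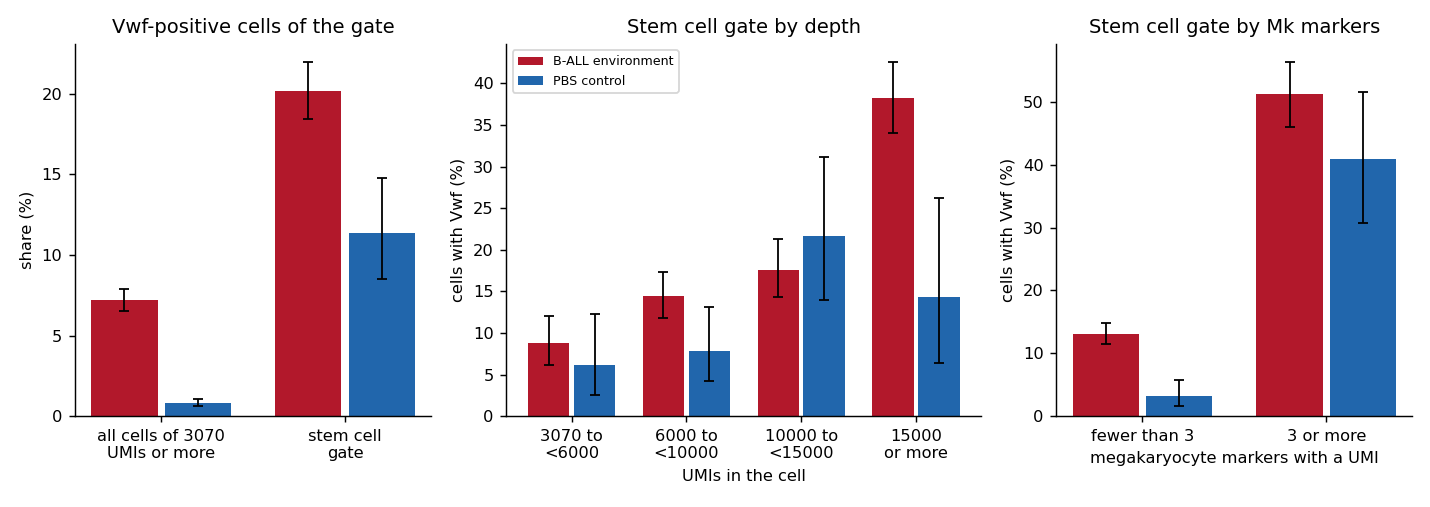
Share (%) of Vwf-positive cells in the B-ALL environment (red) and the PBS control (blue), among all cells and in the gate (left), in the gate by UMIs per cell (middle) and by the number of megakaryocyte markers (right), with 95% exact binomial intervals for counting error. The intervals are apart for all cells, for the gate, in the deepest bin and for cells with fewer than 3 megakaryocyte markers (13.1% and 3.25%).

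Genes that went with Vwf in both groups were mainly those of platelets. Over 4091 genes outside the rule that averaged 50 CPM or more, 20 (0.489%) were at least 2-fold higher in Vwf-positive than in Vwf-negative cells of the gate in both groups, and 22 (0.538%) were at least 2-fold lower. Of the 10 highest, Pf4 had 1089 CPM in Vwf-positive and 34.0 CPM in Vwf-negative cells of the B-ALL environment, giving a log2 fold of 5.0 (4.89 to 5.12), and 4024 and 173 CPM in the PBS control, a log2 fold of 4.54 (4.41 to 4.66). Itga2b, the integrin alpha IIb subunit of the fibrinogen receptor, had 166 and 55.6 CPM in the B-ALL environment, giving a log2 fold of 1.57, and 264 and 53.9 CPM in the PBS control, a log2 fold of 2.29. Gp9, a subunit of the platelet receptor that binds von Willebrand factor, had 52.4 and 18.2 CPM in the B-ALL environment and 109 and 30.1 CPM in the PBS control. Also among the 10 highest were Cavin2, a caveolae coat protein, with log2 folds of 3.20 and 3.60, Timp3, a metalloproteinase inhibitor (2.70 and 3.37), Slc14a1, a urea transporter (1.79 and 2.65), the small GTPase Rap1b, which activates platelet integrins (1.74 and 2.15), Rab27b, a GTPase of granule secretion (1.48 and 2.95) and Plek, the platelet kinase substrate pleckstrin (1.43 and 2.00).

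The upstream bases of Pf4, Itga2b and Gp9 are shown since these platelet genes moved with Vwf. Each run is the 250 bases before the RefSeq start (GRCm38.p6, 5′ to 3′ on the gene's strand), for Pf4 chr5:90772185-90772434 on the plus strand, for Itga2b chr11:102469884-102470133 on the minus strand and for Gp9 chr6:87777820-87778069 on the plus strand. The GENCODE M21 annotation starts Itga2b at 102470122, so most of its run lies inside the gene by that annotation. Capitals mark GATAA, the core of GATA factor motifs, and GGAA, the core of ETS factor motifs, each on either strand (TTATC and TTCC).
Pf4: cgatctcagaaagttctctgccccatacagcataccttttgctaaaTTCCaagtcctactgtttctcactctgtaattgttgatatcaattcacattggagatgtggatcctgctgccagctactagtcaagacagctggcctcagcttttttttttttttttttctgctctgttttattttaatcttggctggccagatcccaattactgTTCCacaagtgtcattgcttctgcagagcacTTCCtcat
Itga2b: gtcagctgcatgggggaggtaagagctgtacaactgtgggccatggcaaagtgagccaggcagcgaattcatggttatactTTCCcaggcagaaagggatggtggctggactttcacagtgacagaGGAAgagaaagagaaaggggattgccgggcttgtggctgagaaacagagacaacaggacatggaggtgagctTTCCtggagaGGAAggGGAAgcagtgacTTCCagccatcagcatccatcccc
Gp9: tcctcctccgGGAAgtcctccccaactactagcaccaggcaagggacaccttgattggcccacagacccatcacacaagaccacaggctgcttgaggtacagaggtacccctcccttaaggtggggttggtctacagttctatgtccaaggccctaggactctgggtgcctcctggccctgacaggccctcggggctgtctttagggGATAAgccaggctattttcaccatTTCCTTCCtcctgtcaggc
Of the 10 genes with the highest folds, 7 had an entry in the RefSeq table, of which 2 held GATAA and 7 held GGAA. In 32851 promoter windows of the same length GATAA occurred in 22.6% and GGAA in 93.4%. Pf4 had 0 matches of GATAA and 3 of GGAA, Itga2b 0 and 6, and Gp9 1 and 3.

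The platelet program as a whole went with Vwf in both groups, with a smaller median in the B-ALL environment. Of 50 platelet and megakaryocyte effector genes in the list, 42 were in the matrix. In the B-ALL environment 27 of 36 with at least 10 CPM were 1.5-fold or more higher in Vwf-positive cells and 1 was lower, against 2.68% and 5.22% of all 9038 genes tested, and the median log2 fold was 1.22 against 0.01 for all genes. In the PBS control 34 of 40 were higher and 0 lower, against 7.47% and 11.1% of 8930 genes, with a median of 1.86 against -0.02. In both groups at once, 29 of 38 were higher and 0 lower, against 2.04% and 3.42% of 9015 genes. Several of these genes are among the megakaryocyte markers by which members were split. Without cells that had at least 3 such markers the medians were 0.46 in the B-ALL environment and 0.56 in the PBS control.

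Transcription factors of the megakaryocyte and erythroid lines moved with Vwf to a lesser degree. Of 22 in the list, 6 of 19 tested were 1.5-fold or more higher in Vwf-positive cells of both groups and 0 were lower, against the same 2.04% and 3.42% of all genes. Mef2c had log2 folds of 1.06 in the B-ALL environment and 1.11 in the PBS control, and Zfpm1, the GATA cofactor FOG1, of 1.02 and 1.10. Gata1 had log2 folds of 0.93 and 1.07, and Fli1, an ETS factor of megakaryocytes, of 0.77 and 1.36. Lyl1, a basic helix-loop-helix factor of stem cells, was lower, with -0.53 and -1.11.

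**Figure D3:**
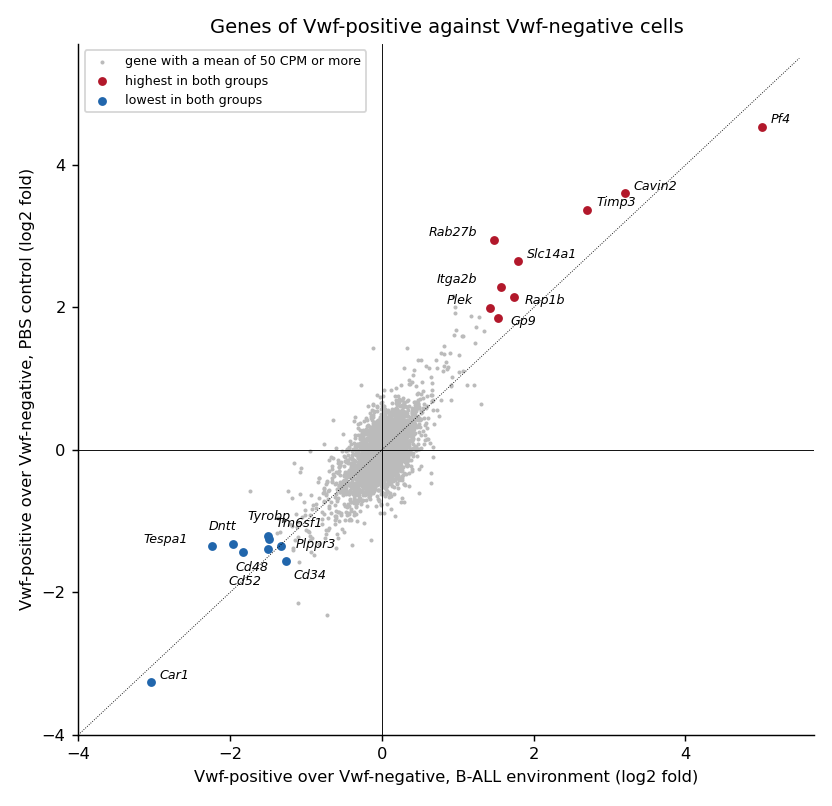
Log2 fold of Vwf-positive over Vwf-negative cells of the gate for each gene averaging 50 CPM or more, in the B-ALL environment (x axis) and the PBS control (y axis), without the rule genes; the dotted line marks equal folds. Coloured genes are 9 of the 10 highest and 9 of the 10 lowest. Of the coloured highest all but Pf4 lie above the line, and of the coloured lowest Car1 is farthest from 0, at -3.04 and -3.26.

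The 10 genes lowest in Vwf-positive cells of both groups included lymphoid, adhesion and signalling genes and 1 erythroid gene. Cd48, an adhesion molecule absent from the most primitive stem cells, had 55.9 CPM in Vwf-positive and 158 CPM in Vwf-negative cells of the B-ALL environment, giving a log2 fold of -1.5, and 55.5 and 145 CPM in the PBS control, a log2 fold of -1.39. Cd34, a sialomucin low in long-term stem cells of adult mice, had 135 and 323 CPM in the B-ALL environment, giving a log2 fold of -1.26, and 163 and 481 CPM in the PBS control, a log2 fold of -1.56. The lowest of all was Car1, the erythroid carbonic anhydrase, with 5.03 and 41.5 CPM in the B-ALL environment and 21.9 and 210 CPM in the PBS control. Also among the 10 lowest were Cd52, with log2 folds of -1.83 and -1.43, Tespa1 (-2.24 and -1.35), Dntt, the lymphoid DNA polymerase TdT (-1.96 and -1.32), Tyrobp, a signalling adaptor (-1.49 and -1.26), Plppr3 (-1.33 and -1.36) and Tm6sf1 (-1.5 and -1.21).

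By list, 10 of 16 lymphoid priming genes were 1.5-fold or more lower in Vwf-positive cells of the B-ALL environment and 9 of 16 in the PBS control, with medians of -0.90 and -0.70, where 5.22% and 11.1% of all genes were lower. Of the granulocyte and monocyte genes, 17 of 20 were lower in the B-ALL environment and 8 of 24 in the PBS control, against the same shares of all genes, with medians of -1.07 and -0.30. Erythroid genes had medians of 0.15 and -0.07. Interferon response genes outside the rule had medians of -0.39 and -0.37, and TNF and NF-kB response genes -0.38 and -0.14. The limit on interferon genes in the rule applied to Vwf-positive and Vwf-negative cells alike.

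Genes known to be high in stem cells of old mice also went with Vwf. Of 19 tested in both groups, 9 were 1.5-fold or more higher in Vwf-positive cells of both and 1 was lower, against 2.04% and 3.42% of 9015 genes, with medians of 0.48 in the B-ALL environment and 0.53 in the PBS control. Clu had 102 CPM in Vwf-positive and 16.0 CPM in Vwf-negative cells of the B-ALL environment, and 43.7 and 5.55 CPM in the PBS control. Ehd3, a membrane trafficking protein, had 101 and 20.1 CPM in the B-ALL environment and 52.1 and 4.49 CPM in the PBS control. In the B-ALL environment Ehd3 had 144 CPM in members with at least 3 megakaryocyte markers and 29.2 CPM in the others. For Clu these levels were 116 and 77.6 CPM. Cavin2 is in this list and in the platelet list.

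The remaining lists had medians between -0.32 and 0.34. Stem cell genes outside the rule had medians of -0.03 in the B-ALL environment and 0.34 in the PBS control, with 3 of 32 higher and 4 lower in both. In the B-ALL environment alone 5 of 33 were higher and 6 lower, against 2.68% and 5.22% of all genes. In the PBS control alone 11 of 30 were higher and 7 lower, against 7.47% and 11.1%. Of the list, Vldlr, a lipoprotein receptor, had log2 folds of -1.64 and -0.93, and Mmrn1, multimerin 1, had 1.17 and 1.88. S phase genes had medians of 0.07 and -0.02, and G2 and M phase genes of 0.26 and 0.10, with 0 of 36 and 0 of 34 past 1.5-fold in both groups. Cytokine feedback genes had medians of -0.13 and -0.32, thrombopoietin signalling -0.08 and -0.22, cell cycle inhibitors and quiescence genes -0.12 and -0.21, and adhesion, homing and niche genes -0.31 and -0.29. Mitochondrially encoded genes had -0.10 and -0.06, and immediate early genes -0.11 and -0.18.

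Across the gate the levels of these genes differed with the number of Vwf molecules. Cells with 0 UMIs are the Vwf-negative cells compared above, not members. Cavin2 was at 24.7, 103, 224 and 367 CPM in gate cells with 0, 1, 2 to 3 and at least 4 UMIs of Vwf in the B-ALL environment, and at 28.5, 255, 363 and 441 CPM in the PBS control. Itga2b was at 55.6, 102, 163 and 239 CPM in the B-ALL environment and at 53.7, 194, 251 and 361 CPM in the PBS control. Hlf, which like Vwf was used to choose the cells and is given as a description, went the other way, with 350, 285, 196 and 120 CPM in the B-ALL environment and 353, 194, 112 and 149 CPM in the PBS control, and Cd34 with 323, 204, 113 and 74.1 CPM and with 480, 233, 100.4 and 138 CPM. In the PBS control Hlf and Cd34 did not fall further from 2 to 3 UMIs to at least 4. The PBS strata with Vwf held 21, 14 and 14 cells. Neighbouring strata in this order overlapped in their counting intervals for Cavin2, Itga2b, Hlf and Cd34, except Cd34 between 1 and 2 to 3 UMIs. Cells with more Vwf were also deeper, with medians of 10965, 15907 and 23669 UMIs in the B-ALL environment and 9322, 11722 and 11808 in the PBS control from 1 UMI upward, and the part of depth in these steps was not tested.

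**Figure D4:**
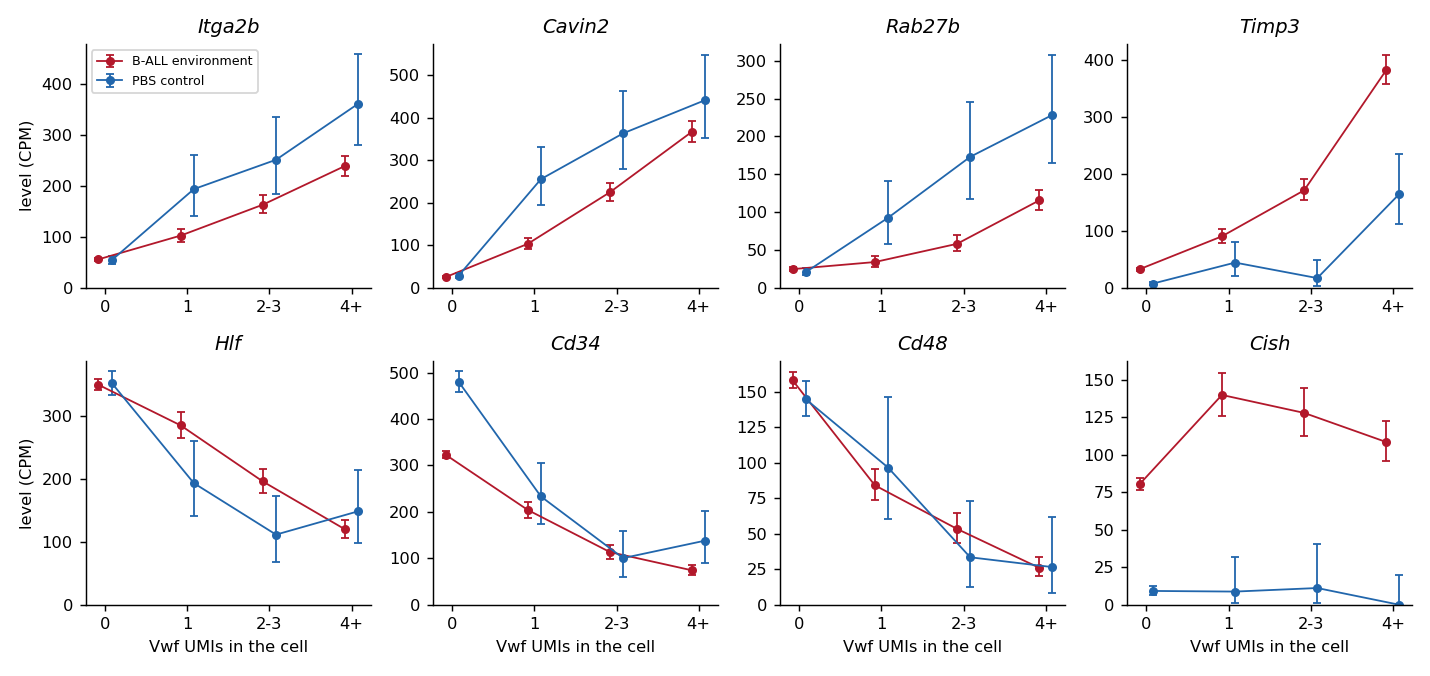
Level (CPM, with 95% Poisson intervals for counting error) of 8 genes in gate cells by their number of Vwf UMIs, in the B-ALL environment (red) and the PBS control (blue), each axis starting at 0. Itga2b, Cavin2, Rab27b and Timp3 are higher, and Hlf, Cd34 and Cd48 lower, in cells with at least 4 UMIs of Vwf than in cells with 0, while Cish separates the groups at every number of Vwf UMIs.

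The smaller set of members with fewer than 3 megakaryocyte markers was set against Vwf-negative cells of the gate with the same limit, a comparison added after the split had been seen. In both groups at least 2-fold higher were 4 genes, of which 3 are given. The Vwf-positive side of the PBS control held only 11 cells with 83452 UMIs in all. Cavin2 had 92.6 raw CPM in Vwf-positive and 10.4 in Vwf-negative cells of the B-ALL environment and 300 and 14.7 in the PBS control. Mmrn1, the platelet and endothelial protein multimerin 1, had 104 and 41.2 in the B-ALL environment and 168 and 25.4 in the PBS control. Cish, a feedback inhibitor of cytokine signalling, had 189 and 85.7, and 47.9 and 10.7, where the PBS value rests on 4 UMIs. The 2 genes at least 2-fold lower in both groups were Car1 and Dntt, where Dntt rests on 2 UMIs in the PBS control and Car1 on 7. Car1 had a UMI in 3.23% of Vwf-positive and 2.43% of Vwf-negative cells of the B-ALL environment. In the PBS control these shares were 18.2% and 17.1%, so its lower level was not a lower share of cells.

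In the B-ALL environment, which held 217 of these 228 members, 7 of 4185 genes (0.167%) were at least 2-fold higher and 7 (0.167%) at least 2-fold lower. Cavin2 averaged under 50 CPM there after scaling and was not among the genes tested. Beside Mmrn1 and Cish, the higher ones included Aldh1a1, an aldehyde dehydrogenase whose activity marks stem cells (79.0 and 34.8 raw CPM), Bex4 (93.4 and 43.5), the transglutaminase Tgm2 (80.9 and 38.5) and the unnamed transcript C530008M17Rik (72.7 and 34.8). The lower ones included Hbb-bs and Hbb-bt, which encode beta globin, Ffar2, a receptor of short-chain fatty acids (39.9 and 91.2), Cd48 (79.4 and 175), Cd52 (71.9 and 157) and Nkg7 (79.0 and 167). Pf4 had 32.8 and 17.8 and Itga2b 56.7 and 38.1, although both were used in the split. Hbb-bs had a UMI in 10.1% of Vwf-positive and 6.82% of Vwf-negative cells, so its lower level was not a lower share of cells. For Hbb-bt these shares were 18.4% and 24.5%.

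Between the groups, Vwf-positive cells of the B-ALL environment had higher levels of the feedback genes Cish and Socs2 and lower levels of many granulocyte and some platelet genes than those of the PBS control. Of 4076 genes that averaged 50 CPM or more, 29 (0.711%) were at least 2-fold higher and 50 (1.23%) at least 2-fold lower. Cish was the highest, with 126 CPM in the B-ALL environment and 6.73 CPM in the PBS control, a log2 fold of 4.22 (2.86 to 6.10). It had a UMI in 71.7% of members of the B-ALL environment and in 6.12% of those of the PBS control, where it rests on 4 UMIs. Socs2, a related feedback inhibitor of the SOCS family, had 118 and 18.5 CPM, a log2 fold of 2.67 (1.83 to 3.68).

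Slfn2, a Schlafen protein tied to immune cell quiescence, had 155 CPM in the B-ALL environment and 8.41 CPM in the PBS control, a log2 fold of 4.21 (2.98 to 5.83). Ifitm1, an interferon-inducible membrane protein, had 2256 and 234 CPM, a log2 fold of 3.27 (3.03 to 3.52). The calcium-binding protein S100a6 had 130 and 30.3 CPM, the protease inhibitor Serpina3g 491 and 131 CPM, and Mycn, a MYC family transcription factor, 225 and 80.7 CPM. Dst, a cytoskeletal linker, had a log2 fold of 1.62, the homeobox factor Nkx2-3 of 1.61 and Timp3 of 1.52. All 10 were also higher in Vwf-negative cells of the gate, with log2 folds of 0.95 to 4.22.

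The genes lowest in the B-ALL environment were of 3 kinds. Ppbp, a platelet chemokine precursor, had 8.11 CPM in the B-ALL environment and 131 CPM in the PBS control, but 94.9% of its PBS UMIs came from 1 cell. Treml1, a receptor of platelet granules, had 22.5 and 121 CPM, a log2 fold of -2.43 (-2.84 to -2.01), with a UMI in 21.7% and 49.0% of members. Mpo, the myeloperoxidase of granulocyte granules, had 227 and 891 CPM, Elane, neutrophil elastase, 107 and 415 CPM, and Ctsg, cathepsin G, 106 and 493 CPM. Il12a, a cytokine subunit, had 26.1 and 97.5 CPM.

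The remaining ones were AY036118 (87.6 and 626 CPM), the histone genes Hist1h4h (47.2 and 286 CPM) and Hist1h4c (17.8 and 89.1 CPM) and Tsix, the antisense partner of Xist, with 99.0 and 464 CPM. The sources used here do not say whether reads were counted by strand, so Tsix and Xist reads may not be separable. AY036118 had log2 folds of -2.84 in Vwf-positive and -2.89 in Vwf-negative cells of the gate and of -2.71 in erythroid cells, Hist1h4h of -2.60, -2.39 and -2.28, and Tsix of -2.23, -1.96 and -2.49.

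The granule genes also differed in cells that should lack them. In erythroid cells Mpo was at 9.81 CPM in the B-ALL environment (a UMI in 18.9% of cells) and at 97.6 CPM in the PBS control (59.3%), and Elane at 8.17 and 44.2 CPM. Among members Mpo had a UMI in 27.6% of those of the B-ALL environment and 83.7% of those of the PBS control, and the part of RNA from other cells in this difference was not tested. With at least 4 of 8 markers required, which left 276 and 16 members, its log2 fold was 0.14.

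**Figure D5:**
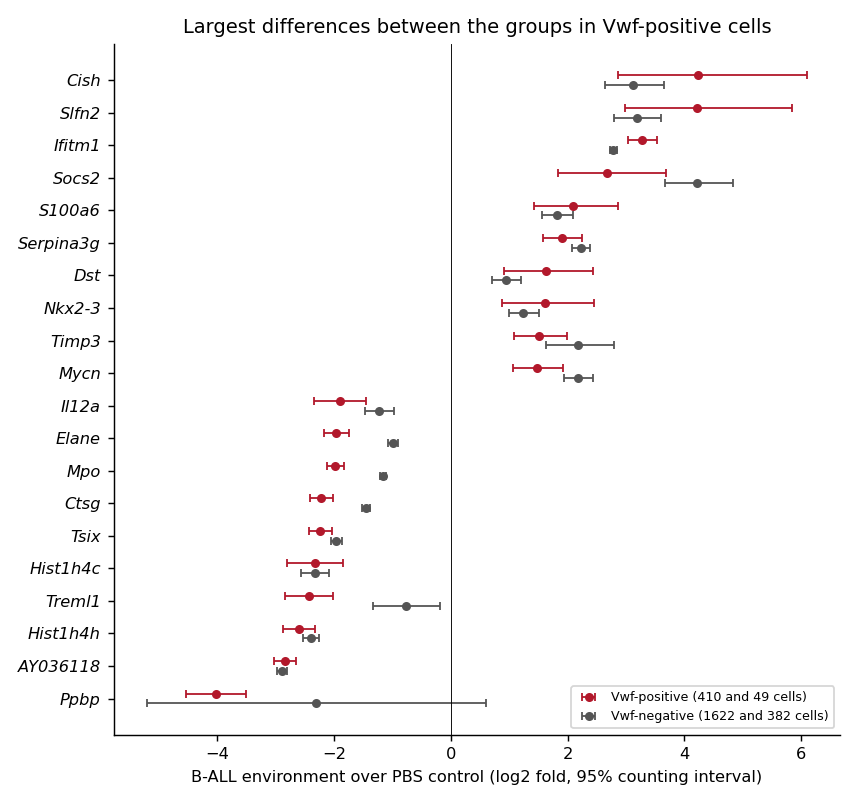
Log2 fold, B-ALL environment over PBS control, with 95% counting intervals, for the 10 highest and 10 lowest genes in Vwf-positive cells of the gate (red), with the same genes in Vwf-negative cells (grey). The 10 highest are above 0 in both kinds of cell, and Treml1, Elane and Mpo are lower in Vwf-positive than in Vwf-negative cells.

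Among the lists, 17 of 40 platelet and megakaryocyte effector genes were 1.5-fold or more lower in Vwf-positive cells of the B-ALL environment and 1 was higher, against 8.27% and 9.90% of 8901 genes, and the median log2 fold was -0.56 against 0.03 for all genes. In Vwf-negative cells 4 of 30 were lower and 5 higher, against 2.82% and 3.81% of 9075 genes, with a median of 0.0044. Members with at least 3 megakaryocyte markers, compared between groups on their own, gave a median of -0.31, and those with fewer than 3 gave -0.37, or -0.22 with scaling recomputed for them, on 11 cells in the PBS control. Pf4 had log2 folds of -1.89 in all members, -1.46 among members with at least 3 megakaryocyte markers and -2.35 in Vwf-negative cells. Treml1 had -2.43 in all members and -2.09 among members with at least 3 megakaryocyte markers. In megakaryocyte progenitors outside the gate Pf4 had -1.93 and Treml1 -1.44, so their lower levels were not confined to members. Gp1bb of the same list had 34.8 CPM in these progenitors of the B-ALL environment and 39.0 CPM in those of the PBS control, with overlapping intervals. The whole list was not tested in them. Itga2b had -0.67 (-0.91 to -0.42) in all members, 0.04 in Vwf-negative cells and -0.38 among members with at least 3 megakaryocyte markers. Since cells with at least 3 of these markers were a larger share of the members in the PBS control (47.1% in the B-ALL environment and 77.6% in the PBS control), a lower level per cell and fewer such cells cannot be told apart in the sum over all members.

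For the lists that follow, the shares over all genes are again 9.90% higher and 8.27% lower in Vwf-positive cells and 3.81% higher and 2.82% lower in Vwf-negative cells of the gate. Of the granulocyte and monocyte genes 14 of 20 were lower and 1 higher (median -1.04) in Vwf-positive cells, and 11 of 23 were lower and 1 higher (median -0.43) in Vwf-negative cells. Of the lymphoid priming genes 7 of 16 were lower and 1 higher (median -0.42) in Vwf-positive cells, and 6 of 17 lower and 2 higher (median -0.08) in Vwf-negative cells. Flt3, the receptor of lymphoid and myeloid progenitors, had 12.6 CPM in the B-ALL environment and 47.1 CPM in the PBS control, and Ighm, the mu heavy chain, 6.71 and 40.4 CPM. Of the erythroid genes 4 of 10 were lower and 1 higher (median -0.05). Of the megakaryocyte and erythroid transcription factors 1 of 19 was lower and 1 higher (median -0.06).

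Of the cytokine feedback genes 6 of 23 were higher and 2 lower (median 0.33) in Vwf-positive cells, against 9.90% and 8.27% of all genes, and 8 of 25 were higher and 2 lower (median 0.13) in Vwf-negative cells. Among members with at least 3 megakaryocyte markers the median was 0.37, with 8 of 21 higher and 2 lower. Of all 8701 genes tested in them, 942 were higher and 904 lower. Among the others, with 11 cells in the PBS control, the median was 0.0013, with 11 of 24 higher and 6 lower. Of all 9187 genes tested in these, 1813 were higher and 2230 lower. Beside Cish and Socs2, the kinase Pim2 had 68.3 and 5.05 CPM, where the PBS value rests on 3 UMIs, Socs1 had 36.2 and 8.41 CPM on 5 PBS UMIs, and the kinase Pim1 had 516 and 239 CPM, a log2 fold of 1.11 (0.87 to 1.36). Ccnd1, cyclin D1, was lower, with 31.3 and 94.2 CPM. The thrombopoietin signalling list, which shares members with that list, had a median of 0.29, with 5 of 23 higher and 1 lower. Kit, the receptor used for sorting, had 186 and 367 CPM, a log2 fold of -0.98 (-1.19 to -0.77), and -0.93 in Vwf-negative cells.

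Of the stem cell genes outside the rule 10 of 32 were higher and 2 lower (median 0.19) in Vwf-positive cells, against 9.90% and 8.27% of all genes, and 11 of 32 higher and 0 lower (median 0.44) in Vwf-negative cells. Of those known to be high in stem cells of old mice 5 of 19 were higher and 2 lower (median 0.36) in Vwf-positive cells, and 6 of 18 higher and 0 lower (median 0.41) in Vwf-negative cells. Within members with at least 3 megakaryocyte markers the medians were -0.18 for the stem cell genes and 0.09 for the old-mouse genes. Within the others, with 11 cells in the PBS control, they were -0.26 and -0.14. The medians of all genes were 0.02 and -0.07 in these 2 kinds of member, so the higher medians over all members did not hold within each. Of the old-mouse genes, Clu, the chaperone clusterin, had 102 CPM in the B-ALL environment and 43.7 CPM in the PBS control, a log2 fold of 1.22 (0.65 to 1.84), and Nupr1, a stress-induced chromatin protein, 50.6 and 15.1 CPM. Selp, the adhesion receptor P-selectin of the same list, had 41.8 and 42.0 CPM. Of the other stem cell genes, Tgm2 had 56.3 and 20.2 CPM and Ltb, lymphotoxin beta, 94.8 and 38.7 CPM.

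Of the adhesion, homing and niche genes, with a median of -0.04, 8 of 24 were higher and 4 lower, where 9.90% and 8.27% of all genes were higher and lower. Podxl, the sialomucin podocalyxin, had 73.0 CPM in the B-ALL environment and 5.05 CPM on 3 UMIs in the PBS control. Ncam2, a neural adhesion molecule, had 20.8 CPM and 0 UMIs in the PBS control, which with a floor of 3 UMIs for the group gives a log2 fold of at least 2.05. S phase genes had a median of 0.12, with 2 of 36 higher and 1 lower, and G2 and M phase genes of 0.30, with 5 of 34 higher and 0 lower, among them Aurka (51.3 and 23.5 CPM) and Ube2c (262 and 145 CPM). In Vwf-negative cells 0 of 36 and 0 of 34 of these were past 1.5-fold. Among members with at least 3 megakaryocyte markers the S phase and G2 and M phase medians were 0.20 and 0.41. Among the others, with 11 cells in the PBS control, they were 0.87 and 0.52. In these, 22 of 35 S phase genes were higher and 1 lower, and 16 of 34 G2 and M phase genes were higher and 1 lower. Of all 9187 genes tested in these, 1813 were higher and 2230 lower. Cell cycle inhibitors and quiescence genes had a median of -0.05, with 8 of 23 higher and 4 lower, and Id1, an inhibitor of differentiation, had 54.2 CPM and 6.73 CPM on 4 UMIs. The interferon response outside the rule had a median of 0.15, with 7 of 34 higher and 2 lower, the TNF and NF-kB response 0.15, with 4 of 20 higher and 0 lower, immediate early genes 0.48, with 6 of 15 higher and 1 lower, and the 13 mitochondrially encoded genes 0.44, with 2 higher and 2 lower.

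Against Vwf-negative cells of the gate, the difference between the groups was larger or smaller by over 2-fold in Vwf-positive cells for 7 genes upward (0.171% of 4091) and 8 downward (0.196%). The first 5 upward were Ier3, a stress response gene, with a difference of log2 folds of 1.61 (0.51 to 2.70), Def8 (1.11), Cish (1.10, -0.39 to 2.60, within counting error of 0), Ubqln1 (1.10) and Prxl2a (1.09). Each rests on 4 to 20 UMIs of the PBS members. Downward they were Socs2 with -1.54 (-2.57 to -0.52), Rab27b with -1.48 (-1.95 to -1.01), Gucy1a1, a subunit of the nitric oxide receptor, with -1.22 (-1.73 to -0.72), Gnaq, a G protein subunit of platelet activation, with -1.20 (-1.64 to -0.76) and Wfdc17 with -1.16 (-1.78 to -0.55). Rab27b had 68.2 CPM in Vwf-positive cells of the B-ALL environment and 160 CPM in those of the PBS control, while Vwf-negative cells had 24.5 and 20.6 CPM.

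Markers of other cell types were summed over the members. The 8 neutrophil progenitor markers summed to 1209 CPM in the B-ALL environment and 2859 CPM in the PBS control, and at least 3 of them had a UMI in 131 of 410 and 37 of 49 members. The 8 endothelial markers in the matrix, of 15 listed, summed to 129 and 133 CPM, of which Egfl7, a gene that stem cells also use, gave 90.4 and 114 CPM, and Sox18, Cd36 and Fabp4 were at 0 in the PBS control. Erythroid markers summed to 51.6 and 63.9 CPM, monocyte markers to 56.6 and 168 CPM, basophil and mast cell markers to 222 and 286 CPM, mainly Gata2, and lymphoid progenitor markers to 39.8 and 128 CPM. B-cell and leukemia markers summed to 42.9 and 89.1 CPM, mainly Cd79b, and Igll1 was at 0 in both groups. T and NK cell markers summed to 117 and 198 CPM, nearly all Nkg7, macrophage markers to 9.23 and 6.73 CPM and stromal markers to 5.17 and 10.1 CPM. The matrix held only 5 of 10 B-cell and leukemia, 2 of 9 T and NK cell, 2 of 7 stromal and 5 of 8 basophil and mast cell markers. Low sums of these lists therefore do not show that such RNA was absent. Their part in the differences between the groups was not tested.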

How the data were processed

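Host marrow cells were measured by 10x Genomics 3′ RNA sequencing. Seurat 4.0.1, Cell Ranger 4 and the mm10 genome are named, per the submitters' processing notes. The authors deposited raw UMI counts per gene and cell, and their sums equalled the deposited total counts in 100% of 11764 cells. The deposited UMAP coordinates are scores with arbitrary units. How 5882 cells per group were chosen is not given in the sources used here, and how doublets were treated is not given either. The prefix tm was taken to mean the tumor environment. The members and lists were chosen with earlier results of these data known. Some genes that the naming rule covers are not reported here.

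UMI counts were summed per class and group over 13978 genes. R 4.3.3 with edgeR 4.0.16 gave the TMM factors. Log2 folds have exact conditional 95% intervals and shares exact Clopper-Pearson intervals (scipy 1.17.1), with 3 UMIs as the floor for a group at 0. Both kinds of interval cover counting error alone. The calculation was tested on simulated counts. Calls are 2-fold changes with a mean of at least 50 CPM, and in lists 1.5-fold with at least 10 CPM, without the 13 rule genes. Named genes are the 10 highest and 10 lowest folds of each comparison, the 5 highest and lowest differences, up to 4 members of each of 17 lists, the rule genes and 7 surface genes or receptors. Thinning drew the UMI minimum of the rule from each cell without replacement (seed 1). DESeq2 1.42.0 gave alternative size factors only. Scripts ran in python 3.11.15 with matplotlib 3.10.9, scikit-learn 1.9.0, pandas 2.3.3 and numpy 2.4.6. Megakaryocyte progenitor, erythroid and neutrophil progenitor classes had at least 3 markers of their list, more than of the other 2, and fewer than 3 stem cell markers. Alternatives changed the marker number, the Vwf and UMI minima, the scaling and the weighting of cells, and left out the deepest 5% of cells (possible doublets) or cells with over 1% globin or immunoglobulin.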

Additional observations from a re-analysis of the deposited data

Results flagged for a closer look

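For 5 named genes the B-ALL over PBS fold had opposite signs in Vwf-positive and Vwf-negative cells of the gate. Each was beyond counting error in the sums over all such cells. These differences were not tested, since each group was 1 sample. Cd9, a tetraspanin of megakaryocytes, had log2 folds of -0.62 and 0.41, a difference of -1.04. Fli1 had -0.26 and 0.32, a difference of -0.58. Among members with at least 3 megakaryocyte markers Fli1 had -0.18 (-0.40 to 0.04), and among the others 0.19 (-0.51 to 0.97). Both are within counting error of 0, so a change per cell and in the share of such members cannot be told apart. Tie1, an endothelial and stem cell receptor, had -0.63 and 0.42, a difference of -1.05. Phactr1, an actin regulator, had -1.04 and 1.15, a difference of -2.19. Hba-a1, alpha globin, had -1.91 and 2.86, a difference of -4.77, on 5 UMIs in the PBS members. Among members with at least 3 megakaryocyte markers Cd9 had -0.42, Tie1 -0.71 and Phactr1 -1.42, each with an interval below 0. Hba-a1 had -1.98 (-3.82 to 0.18) there.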

How the results depend on the processing

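The ratio of the Vwf-positive share among all cells (8.65) was 5.04 with at least 2 of 8 markers, 17.8 with at least 4, and 22.1 without cells with at least 3 megakaryocyte markers, a setting chosen after seeing the data. The ratio within the gate (1.77) was 4.03 in that setting, and the other settings kept both ratios within the counting interval of the main value. Thinning before summing and the weightings left the chosen cells unchanged, so they could not move either ratio. With the rule applied to thinned counts the ratio within the gate was 1.38, with an interval of 0.707 to 2.68.

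The number of genes higher in the B-ALL environment in Vwf-positive cells (29) was 270 at a mean of at least 10 CPM, 106 with at least 4 markers, 127 on thinned counts, 47 with equal weight per cell and 315 without the megakaryocyte-marked cells, which left 11 PBS members. The number lower (50) was 220, 84, 111 and 169 at 10 CPM, at 4 markers, thinned and without those cells. Higher in Vwf-positive than Vwf-negative cells (20) were 82 at 10 CPM, 46 with at least 2 UMIs of Vwf, 13 with 4 markers, 11 thinned, 33 with marker numbers weighted to the control (also chosen after seeing the data) and 4 without megakaryocyte-marked cells; lower (22) were 86, 48 and 9 at 10 CPM, 2 UMIs and 4 markers, and 2 without those cells. Differences between the folds (7 upward, 8 downward) were 207 and 133 at 10 CPM, 24 and 26 with 2 UMIs, 99 and 46 with 4 markers, 139 and 56 thinned, 17 and 13 with equal weights, 19 and 13 without the deepest 5%, and 373 and 104 without megakaryocyte-marked cells. Scaling by DESeq2 size factors or by totals kept every one of these counts within 1.5 times. The median of platelet genes was 0.46 in the B-ALL environment and 0.56 in the PBS control for Vwf-positive over Vwf-negative cells without megakaryocyte-marked cells.

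Signs turned without those cells for the median of interferon genes in the PBS control (0.19), S phase genes in the B-ALL environment (-0.17) and G2 and M phase genes in the B-ALL environment (-0.0922) and the PBS control (-0.69), all Vwf-positive over Vwf-negative. With at least 4 markers the B-ALL over PBS median of G2 and M phase genes was -0.24 and the log2 fold of Mpo 0.14. Of 558 list medians under alternatives 511 stayed within the spread of their list, and of 499 values of named genes 363 stayed within counting error. The causes were not tested. No paired analysis was possible because the cells carry no replicate number, and for the same reason no replicate could be left out. The 49 PBS members, with 566730 UMIs, limit every comparison between the groups.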
